A study of Mus musculus with 12 samples.

Results

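The 8 genes Cflar, Fadd, Casp8, Apaf1, Casp9, Casp2, Casp6 and Xiap encode caspases together with the adaptors that switch them on and the proteins that hold them back. They were picked by gene symbol among the 55450 genes counted in growing mouse oocytes, and all 8 were among the 17715 genes that passed the filter on low counts. WT oocytes were compared with Tbpl2-/- oocytes, null for the oocyte-specific TBP paralogue TBPL2 and named Tbp2 null in the sample labels. Oocytes were picked by size at postnatal day 7 (P7, primary follicles) and at postnatal day 14 (P14, secondary follicles), and polyA RNA was sequenced from 3 pools per genotype and age, which makes 4 groups. Each pool held 130 to 400 oocytes, and the animals behind a pool are not given. The labels give no treatment for any group.

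Caspases are proteases that are made as inactive precursors and take a cell apart during apoptosis. In the extrinsic route a death receptor recruits the adaptor FADD, which gathers caspase-8 until it activates itself, and c-FLIP, the product of Cflar, sits in the same complex as a caspase-8 relative that lacks protease activity and limits it. In the intrinsic route cytochrome c released from mitochondria assembles APAF1 into the apoptosome, which activates caspase-9. XIAP binds and inhibits caspase-9 and some, not all, of the effector caspases. Caspase-6 cleaves nuclear lamins, and caspase-2, activated through its own adaptor complex, is known in the mouse ovary for its part in the death of oocytes.

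The promoters of 4 of the genes are shown here because TBPL2 is a core promoter factor and because these genes gave the strongest fall (Cflar), the neighbour of that gene on the chromosome (Casp8), the strongest rise (Casp6) and the adaptor that was lower at both ages (Fadd). The bases are those just before the RefSeq start site on GRCm38.p6, written 5′ to 3′ on the strand of the gene. Capitals mark matches on either strand to TATAAA or GGGCGG, and the Cflar capitals join TATAAA with an overlapping match on the opposite strand.
Cflar: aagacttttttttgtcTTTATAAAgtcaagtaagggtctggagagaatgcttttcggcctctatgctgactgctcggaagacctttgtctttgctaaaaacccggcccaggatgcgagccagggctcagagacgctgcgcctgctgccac
Casp8: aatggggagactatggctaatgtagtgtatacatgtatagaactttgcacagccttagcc
Casp6: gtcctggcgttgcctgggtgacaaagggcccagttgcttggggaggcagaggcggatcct
Fadd: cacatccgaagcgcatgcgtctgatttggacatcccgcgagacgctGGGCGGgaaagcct
The Cflar stretch is chr1:58711341-58711490, that of Casp8 is chr1:58802442-58802501, that of Casp6 is chr3:129901355-129901414 (all on the plus strand) and that of Fadd is chr7:144582442-144582501 on the minus strand. In the 300-base windows that RefSeq starts define, from 250 bases before to 50 after, the TATAAA of Cflar began at position -132, outside the stretch from -40 to -15. Xiap also had TATAAA, on the opposite strand at -249 in its most downstream window, and TATATA at -186 in its most upstream window. TATAAA was found somewhere in 13.6% of all 32851 such windows and between -40 and -15 in 2.11% of them. No member window held a run of 7 A or T bases between -35 and -20, which 7.57% of all windows did. GGGCGG, present in 35.7% of all windows, was found in Fadd, Apaf1, Casp9, Casp2, Casp6 and in 2 of the 3 Xiap windows, and neither Cflar nor Casp8 had it. The GC content was 45.0% in the Cflar window, 42.0% in Casp8, 62.0% in Casp6 and 60.3% in Fadd, against a median of 52.7% over all windows. A match is a description of the letters only. RefSeq starts need not be the starts used in oocytes, and which start each gene uses in these oocytes was not tested.

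The libraries held 31467610 to 48030724 counted reads, and replicates of a group correlated at 0.981 to 0.992. The targeted gene Tbpl2 went from 3145 ± 153 (SD, n = 3) normalised counts in P7 WT to 97.4 ± 21.1 in P7 Tbpl2-/-, and from 2151 ± 273 to 80.2 ± 4.27 at P14. Normalised counts are read counts divided by the size factor the authors computed for each library, so all levels are relative to the other RNAs of the pool and say nothing of the amount per oocyte. In such bulk samples fewer cells of a type and less RNA per cell cannot be told apart. All 12 oocyte markers were detected in every group, and in Tbpl2-/- oocytes 7 of them were lower and 2 higher at P7, and 9 lower and 1 higher at P14. The composition factors of the fit (TMM) were 0.813 to 0.952 in WT and 1.11 to 1.16 in Tbpl2-/- libraries. The 17 granulosa cell markers, with Krt19 at 0 in both P14 groups, summed to 3074 to 4148 in P7 WT and 1378 to 1715 in P7 Tbpl2-/-, and to 3851 to 4451 in P14 WT and 2951 to 3317 in P14 Tbpl2-/-. At P7 12 of the 16 tested granulosa markers were lower in Tbpl2-/- and none was higher, and at P14 3 were lower and 2 higher. These counts of markers stand beside 28.9% of all tested genes lower and 30.5% higher at P7, and 27.8% and 29.9% at P14. The 5 endothelial markers, with Cdh5 at 0 in P7 Tbpl2-/- and in P14 WT, summed to 1063 to 1909 in P7 WT, 764 to 896 in P7 Tbpl2-/-, 3323 to 3992 in P14 WT and 984 to 1247 in P14 Tbpl2-/-. The 7 theca and stroma markers, none at 0, summed to 48.03 to 82.7 in P7 WT, 103 to 161 in P7 Tbpl2-/-, 71.6 to 95.5 in P14 WT and 79.5 to 157 in P14 Tbpl2-/-. Of the 4 tested endothelial markers, only Pecam1 was lower at P7 and none was higher. At P14 Pecam1, Tek and Flt1 were lower and Kdr was higher. Of the 3 tested theca and stroma markers, Dcn was higher at both ages and Lhcgr at P14, and none was lower. The part of granulosa, endothelial, theca and stroma cells in the results below was not tested.

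Among the 8 genes, 3 were lower and 2 higher in P14 Tbpl2-/- oocytes than in P14 WT, where 27.8% of all tested genes were lower and 29.9% higher (edgeR quasi-likelihood test, adjusted p of at most 0.05 over all 17715 tested genes). At P7 3 were lower and 3 higher, beside 28.9% and 30.5% of all genes. Cflar and Fadd were lower and Casp6 was higher at both ages. Apaf1 was lower and Casp8 higher at P14, while Xiap was lower and Casp9 and Casp2 were higher at P7. Their median log2 fold change was 0.07 for P14 and -0.10 for P7, beside 0.07 and 0.02 over all tested genes.

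**Figure D1:**
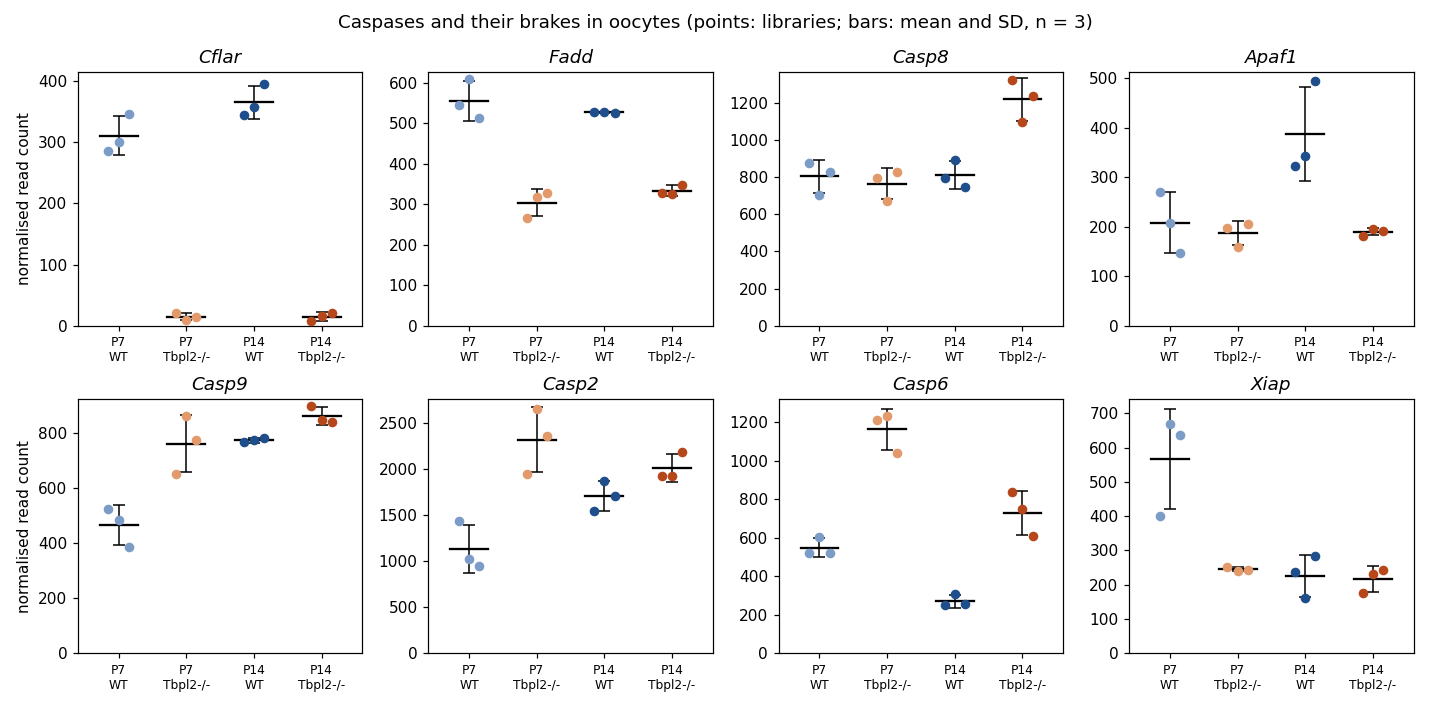
Normalised read counts of the 8 genes (vertical axes from 0, a scale for each gene) in the 4 groups on the horizontal axis. Points are libraries, and bars are the mean and SD of 3. Cflar stays at 21.6 or less in all 6 Tbpl2-/- libraries and at 285 or more in all 6 WT libraries.

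Cflar (ENSMUSG00000026031, chr1:58711508-58758884, plus strand) was the member with the largest change. Its normalised counts were 285, 300.3 and 346 in the P7 WT libraries and 21.2, 9.54 and 13.7 in P7 Tbpl2-/-. At P14 they were 343, 357 and 395 in WT and 7.66, 15.96 and 21.6 in Tbpl2-/-. Every Tbpl2-/- library was far below every WT library, and between 8 and 25 raw reads were left in each. The log2 fold change was -4.36 at P7 (SE 0.30, edgeR adjusted p = 9.43e-09), a 20.5-fold lower level, and -4.55 at P14 (SE 0.29, adjusted p = 5.57e-09), a 23.4-fold lower level. Ranked from the most negative log2 fold change, Cflar was number 132 of 17715 genes at P7 and number 59 at P14. Over the 18 alternative settings the log2 fold change stayed between -4.83 and -4.14 at P14 and between -4.72 and -4.08 at P7. The difference between the effects at P14 and at P7 did not pass the test (interaction -0.19, SE 0.43, adjusted p = 0.773). Of the 50-base stretches of its transcripts, 7.36% also occur in other genes. By the methods of the study only uniquely aligned reads were counted, so reads that fit several places equally are not among these counts. How many reads were left out in this way was not tested.

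Cflar lies next to Casp8 on the chromosome, with 36489 bases from the end of the former to the start of the latter, and the neighbours were looked at after the values of Cflar were seen. Casp8 itself had a log2 fold change of -0.05 at P7 (edgeR adjusted p = 0.758) and 0.61 at P14. On the other side Ndufb3, a subunit of respiratory complex I, had -0.83 at P7 (adjusted p = 3.01e-04) and 0.17 at P14 (adjusted p = 0.378). Fam126b had -0.83 (adjusted p = 0.00714) and -1.21 (adjusted p = 5.50e-04). Ndufb3 and Fam126b were both nearer to 0 than Cflar at each age, and the lincRNA Gm15834 beside Fam126b passed at neither. Gm28802, a pseudogene behind Casp8, had -3.91 at P7 (adjusted p = 2.93e-08) and -0.76 at P14 (adjusted p = 0.00662). Behind it the protein-coding Trak2 had -0.27 at P7 (edgeR adjusted p = 0.266) and -0.60 at P14 (adjusted p = 0.0191).

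Fadd (ENSMUSG00000031077, chr7:144577318-144582463, minus strand) encodes the adaptor that links death receptors to caspase-8. It had 545, 610 and 513 normalised counts in P7 WT and 266, 318 and 327 in P7 Tbpl2-/-. In P14 WT the values were 527, 528 and 526, the closest of any member, and in P14 Tbpl2-/- 327, 325 and 349. The groups did not overlap at either age. The level was 1.81-fold lower at P7 (log2 fold change -0.85, SE 0.14, edgeR adjusted p = 6.79e-05) and 1.56-fold lower at P14 (-0.64, SE 0.14, adjusted p = 8.84e-04). Scaling by library size alone, which moved the median of all genes at P14 from 0.07 to 0.48, gave -0.22 for Fadd at P14 (adjusted p = 0.166). Of its exon bases 6.12% overlap Faddos on the opposite strand, and without strand in the library the reads of the 2 genes cannot be told apart there.

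Casp8 (ENSMUSG00000026029, chr1:58795374-58847503, plus strand) encodes the initiator caspase of the extrinsic route. It had 877, 704 and 829 normalised counts in P7 WT and 794, 672 and 827 in P7 Tbpl2-/-, which overlap. At P14 it had 792, 893 and 748 in WT and 1320, 1093 and 1237 in Tbpl2-/-, all of them above the WT libraries. The log2 fold change at P14 was 0.61 (SE 0.14, edgeR adjusted p = 0.00130), a 1.52-fold higher level. Of its 50-base stretches 4.37% also occur in Gm20257.

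Apaf1 (ENSMUSG00000019979, chr10:90989311-91082770, minus strand), the scaffold of the apoptosome, differed at P14. Its normalised counts were 322, 343 and 495 in P14 WT and 182, 195 and 192 in P14 Tbpl2-/-, so that the mutant libraries lay close together below a more variable WT group. The level was 2.01-fold lower (log2 fold change -1.01, SE 0.22, edgeR adjusted p = 0.00116). At P7 the values of 270, 208 and 146 in WT and 197, 159 and 205 in Tbpl2-/- overlapped (log2 fold change -0.14, adjusted p = 0.623), and without P7 WT replicate 1 the sign turned (0.10).

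Casp9 (ENSMUSG00000028914, chr4:141793612-141815976, plus strand), which the apoptosome activates, differed at P7. It had 524, 484 and 384 normalised counts in P7 WT and 650.5, 860 and 774 in P7 Tbpl2-/-, a 1.66-fold higher level with no overlap (log2 fold change 0.73, SE 0.14, edgeR adjusted p = 4.30e-04). At P14 the WT libraries had 765, 773 and 782 and the Tbpl2-/- libraries 897, 845 and 839. These did not overlap, but the log2 fold change of 0.17 did not pass (SE 0.14, adjusted p = 0.312).

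Casp2 (ENSMUSG00000029863, chr6:42264985-42282508, plus strand) also differed at P7. The 3 P7 WT libraries had 1432, 1018 and 942 normalised counts, and the P7 Tbpl2-/- libraries 1943, 2645 and 2355, a 2.07-fold higher level (log2 fold change 1.05, SE 0.16, edgeR adjusted p = 4.18e-05). At P14 the values were 1542, 1866 and 1705 in WT and 1918, 1925 and 2184 in Tbpl2-/-. The mutant libraries were again all above the WT libraries, with a log2 fold change of 0.26 that did not pass (SE 0.16, adjusted p = 0.178). Scaled by library size alone, Casp2 (0.68, adjusted p = 9.48e-04) and Casp9 (0.59, adjusted p = 0.00156) passed at P14.

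Casp6 (ENSMUSG00000027997, chr3:129901425-129914103, plus strand), an effector caspase, was the member with the largest rise. Its normalised counts were 518, 606 and 520.2 in P7 WT and 1214, 1236 and 1043 in P7 Tbpl2-/-. At P14 they were 248, 307 and 253 in WT and 837, 747 and 608 in Tbpl2-/-. All Tbpl2-/- libraries lay above all WT libraries of the same age. The level was 2.15-fold higher at P7 (log2 fold change 1.10, SE 0.15, edgeR adjusted p = 1.11e-05) and 2.75-fold higher at P14 (1.46, SE 0.15, adjusted p = 8.23e-07).

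Xiap (ENSMUSG00000025860, chrX:42059679-42109656, plus strand), a direct inhibitor of some caspases, had 400, 668 and 636 normalised counts in P7 WT and 253, 241 and 244 in P7 Tbpl2-/-. The mutant libraries lay close together, whereas P7 WT replicate 1 was well below the other WT libraries but still above the mutants. The level was 2.28-fold lower (log2 fold change -1.19, SE 0.23, edgeR adjusted p = 3.24e-04). At P14 the values of 236, 161 and 282 in WT and 174, 232 and 244 in Tbpl2-/- overlapped, with a log2 fold change of -0.04 (SE 0.23, adjusted p = 0.886).

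**Figure D2:**
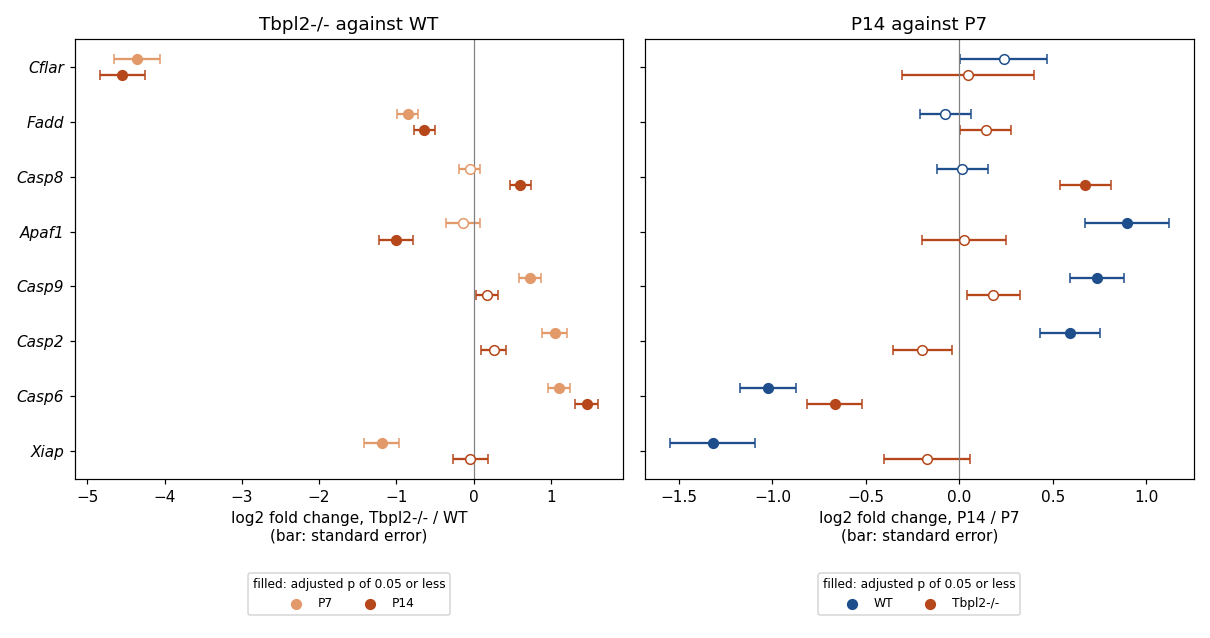
Log2 fold changes of the 8 genes with their standard errors (horizontal axis), Tbpl2-/- against WT at each age on the left and P14 against P7 in each genotype on the right. Filled points have an adjusted p of 0.05 or less. Cflar at -4.36 and -4.55 stands alone on the left, and on the right 5 WT points and 2 Tbpl2-/- points are filled.

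The libraries of the 2 genotypes did not overlap for 7 of the 8 genes at P14, beside 63.9% of all tested genes, and for 6 of 8 at P7, beside 63.5%. The ages were then compared within each genotype. In WT, Apaf1 (log2 fold change 0.90, edgeR adjusted p = 0.00372), Casp9 (0.74, adjusted p = 6.45e-04) and Casp2 (0.59, adjusted p = 0.00626) were higher at P14 than at P7, and Casp6 (-1.02, adjusted p = 7.60e-05) and Xiap (-1.32, adjusted p = 2.55e-04) were lower. These are 3 higher and 2 lower of 8, beside 26.8% and 23.4% of all genes, and 5 of 8 did not overlap between ages, beside 57.2%. In Tbpl2-/-, Casp8 was higher at P14 (0.67, adjusted p = 0.00146) and Casp6 lower (-0.67, adjusted p = 0.00266), 1 each of 8 beside 18.4% and 15.3% of all genes, and these 2 were also the only members without overlap, beside 50.5%. Cflar and Fadd did not pass between the ages in either genotype. In Tbpl2-/- the values of Apaf1, Casp9 and Casp2 were 0.03, 0.18 and -0.20, none of which passed.

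The difference of the genotype effect between the ages was tested as an interaction, P14 minus P7. It passed for Casp8 (0.66, SE 0.19, edgeR adjusted p = 0.0197), Xiap (1.15, SE 0.32, adjusted p = 0.0164) and Casp2 (-0.79, SE 0.23, adjusted p = 0.0175), 2 higher and 1 lower of 8 beside 13.6% and 14.3% of all genes. Apaf1 (-0.87, adjusted p = 0.0519) and Casp9 (-0.56, adjusted p = 0.0516) lay just beyond the limit. Casp8 missed it without P14 WT replicate 1 (adjusted p = 0.0503), without P14 WT replicate 3 (0.0502) or without P7 KO replicate 2 (0.0532), and Casp2 missed it without P14 KO replicate 2 (0.0548) or P7 KO replicate 2 (0.0649). Without P7 WT replicate 1, Apaf1 (0.0113) and Casp9 (0.0211) passed, and so did Apaf1 without P14 WT replicate 1 (0.0459) and Casp9 without P7 KO replicate 1 (0.0400). Xiap passed in all 17 alternatives run for the interaction, with an adjusted p of at most 0.0459.

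Levels per gene were compared per kb of the median transcript length that the authors tabulated. Casp2 had the highest level in every group, from 1715 ± 399 normalised counts per kb in P7 WT to 3510 ± 535 in P7 Tbpl2-/-, and its libraries did not overlap those of the next gene. In P7 WT it was followed by Casp6 (517 ± 47.0), Casp8 (427 ± 47.5), Casp9 (395 ± 61.3), Xiap (313 ± 80.6), Cflar (282 ± 29.0), Fadd (142 ± 12.6) and Apaf1 (96.7 ± 28.8), where the libraries of Casp8 overlapped those of Casp9, Casp9 those of Xiap and Xiap those of Cflar. In P14 WT Cflar was the fourth at 332 ± 24.4, and in both Tbpl2-/- groups it was the last, at 13.5 ± 5.38 at P7 and 13.7 ± 6.39 at P14, without overlap with the next lowest gene. Because the annotation lists many short Casp2 transcripts, with a median of 659.5 bases, the order was also taken with the longest transcript of each gene, a choice made after seeing the data. Casp2 then still came first but overlapped Casp8 in P7 WT (320.4 ± 74.6 against 311 ± 34.6), and Cflar was again the last in both Tbpl2-/- groups.

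The balance of partners was followed as ratios within each library, which do not depend on the scaling between libraries. The ratio of Cflar to Casp8, a brake and its target, was 0.557, 0.730 and 0.716 in P7 WT and 0.0457, 0.0243 and 0.0283 in P7 Tbpl2-/-, a geometric mean 21-fold lower. At P14 it was 0.742, 0.684 and 0.905 in WT and 0.00993, 0.0250 and 0.0299 in Tbpl2-/-, 39.6-fold lower. With the longest transcripts the geometric means became 0.177 in P14 WT and 0.00448 in P14 Tbpl2-/-, and the fold between genotypes is the same by construction. All mutant libraries were below all WT libraries, and so they were for Cflar to Fadd, with geometric means of 1.98 in P7 WT, 0.165 in P7 Tbpl2-/-, 2.45 in P14 WT and 0.147 in P14 Tbpl2-/-.

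**Figure D3:**
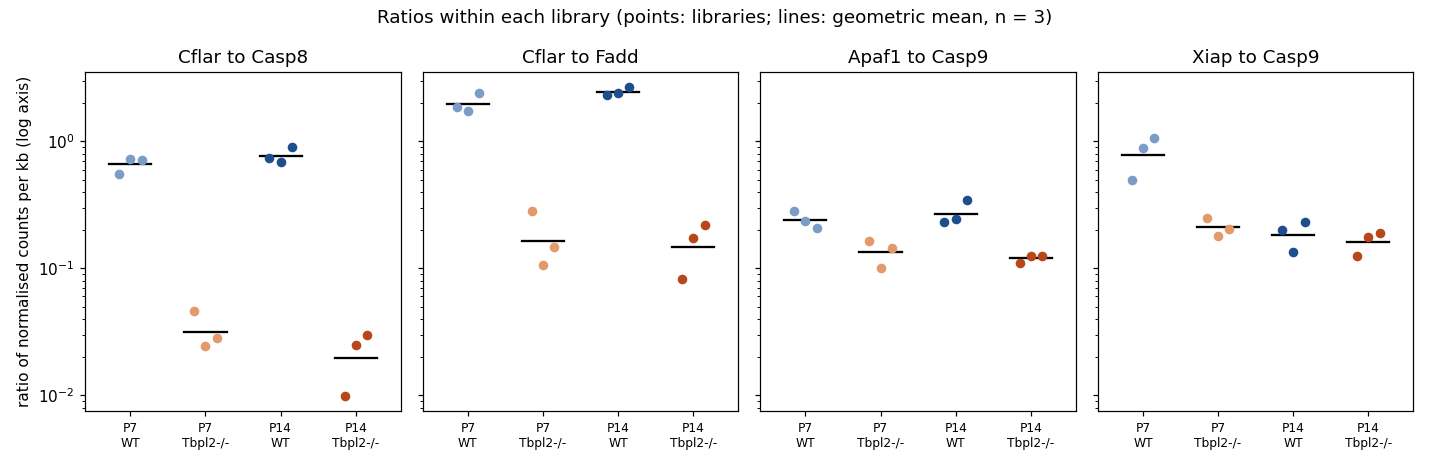
Ratios of normalised counts per kb within each library (vertical log axis) for 4 pairs of partners in the 4 groups. Points are libraries and lines are geometric means of 3. The ratio of Cflar to Casp8 lies between 0.557 and 0.905 in WT libraries and at 0.0457 or below in Tbpl2-/- libraries.

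Apaf1 to Casp9, the scaffold and the caspase it activates, had geometric means of 0.240 (WT) and 0.134 (Tbpl2-/-) at P7 and of 0.268 (WT) and 0.120 (Tbpl2-/-) at P14, with no overlap between genotypes at either age. Xiap to Casp9, inhibitor to target, went from 0.778 in P7 WT to 0.184 in P14 WT without overlap, and it was 0.210 in P7 Tbpl2-/- and 0.161 in P14 Tbpl2-/-. The P7 WT libraries, at 0.493, 0.893 and 1.07, were above all libraries of the other groups, which had 0.251 or less. With 3 against 3 libraries an exact two-sided permutation test cannot go below p = 0.1, which each ratio without overlap reached. Over the 16 comparisons of ratios the smallest adjusted p was 0.2.

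The pathway around the 8 genes was followed in 5 lists, whose counts stand beside the 27.8% of all tested genes that were lower and 29.9% higher at P14, the 28.9% and 30.5% at P7, and medians of 0.07 and 0.02. Of the 4 other caspases reported here, 1 passed the filter on low counts. Casp1, an inflammatory caspase, was higher at both ages at very low counts, 8 reads in the P7 WT libraries together against 76 in P7 Tbpl2-/- and 2 against 22 at P14. Its adjusted p was 5.41e-04 at P7 and 0.0161 at P14, and at P14 it did not pass without P14 WT replicate 3 (0.0637) or P14 KO replicate 3 (0.0708). The 8 macrophage and leukocyte markers, with Adgre1 and Lyz2 at 0 in P7 WT and Cd52 at 0 in P7 Tbpl2-/-, summed to 950.4 to 1376 normalised counts in P7 WT and 289 to 332 in P7 Tbpl2-/-. At P14 they summed to 705 to 1019 in WT, with Adgre1 and Cd52 at 0, and to 460 to 495 in Tbpl2-/-, with Cd52 at 0. Of the 3 tested markers, C1qb was lower in Tbpl2-/- at both ages (log2 fold change -2.43 at P7 and -0.89 at P14). Cd68 and Csf1r did not pass at either age. The part of macrophages and leukocytes was not tested. Casp4, Casp12 and Casp14 had at most 11 reads in any group and were not tested.

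Of 10 death ligands and receptors 5 were tested, of which 2 fell at P14, while 3 fell and 2 rose at P7, with medians of -0.29 and -1.003. Edar, the ectodysplasin receptor, was lower at both ages (log2 fold change -2.11 at P7, edgeR adjusted p = 1.95e-04, and -3.09 at P14, adjusted p = 2.10e-07). Tnfrsf21, death receptor 6, was also lower at both ages, by values of -1.003 (adjusted p = 0.0222) and -2.63 (adjusted p = 2.20e-06), but the P7 value did not pass without P7 WT replicate 1 (adjusted p = 0.125), without P7 KO replicate 3 (0.0817) or by library size alone (-0.72, adjusted p = 0.0914). Tnfsf10, which encodes the death ligand TRAIL, was higher at P7 (1.82, adjusted p = 1.39e-06) and not passing at P14 (-0.29, adjusted p = 0.237). Tnfrsf10b, the mouse TRAIL receptor, was higher at P7 (1.25, adjusted p = 0.0257) at 13.9 ± 7.58 normalised counts in WT and 32.8 ± 10.2 in Tbpl2-/-, and did not pass without P7 WT replicate 3 (adjusted p = 0.0933) or P7 KO replicate 1 (0.127). Tnfrsf1a, a TNF receptor, was lower at P7 (-1.58, adjusted p = 0.0282) at 15.9 ± 3.40 and 5.16 ± 2.59, and did not pass without P7 WT replicate 2 (0.0704), P7 WT replicate 3 (0.061), P7 KO replicate 2 (0.0863) or P7 KO replicate 3 (0.104), nor by library size alone (-1.31, adjusted p = 0.0686).

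The list of death-domain adaptors and RIP kinases also holds signalling partners without a death domain, among them Bid and Traf2. Of its 10 tested genes, 2 were lower and 4 higher at P14, and 1 was lower and 5 higher at P7, with medians of 0.39 and 0.71. Over all tested genes 27.8% were lower and 29.9% higher at P14, and 28.9% and 30.5% at P7, with medians of 0.07 and 0.02. Bid, the substrate through which caspase-8 reaches mitochondria, had 119, 110.3 and 130 normalised counts in P7 WT and 1810, 1778 and 1628 in P7 Tbpl2-/-, the largest rise in the 5 lists (3.88, SE 0.21, edgeR adjusted p = 5.91e-10). At P14 it had 71.9, 62.0 and 67.4 in WT and 745, 548 and 388 in Tbpl2-/- (3.08, adjusted p = 9.64e-09). Traf2, a signalling adaptor of TNF receptors, was higher at both ages (1.80, adjusted p = 2.21e-08, and 2.10, adjusted p = 5.36e-09). Dedd, a death effector domain protein, was lower at both (-0.89, adjusted p = 1.54e-06, and -0.82, adjusted p = 3.63e-06). Ripk1, the kinase that can join FADD and caspase-8, was lower at P14 (-0.57, adjusted p = 0.00756) and had 0.17 at P7 (adjusted p = 0.394). Scaled by library size alone, Ripk1 did not pass at P14 (-0.16, adjusted p = 0.387) and was higher at P7 (0.45, adjusted p = 0.0187).

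**Figure D4:**
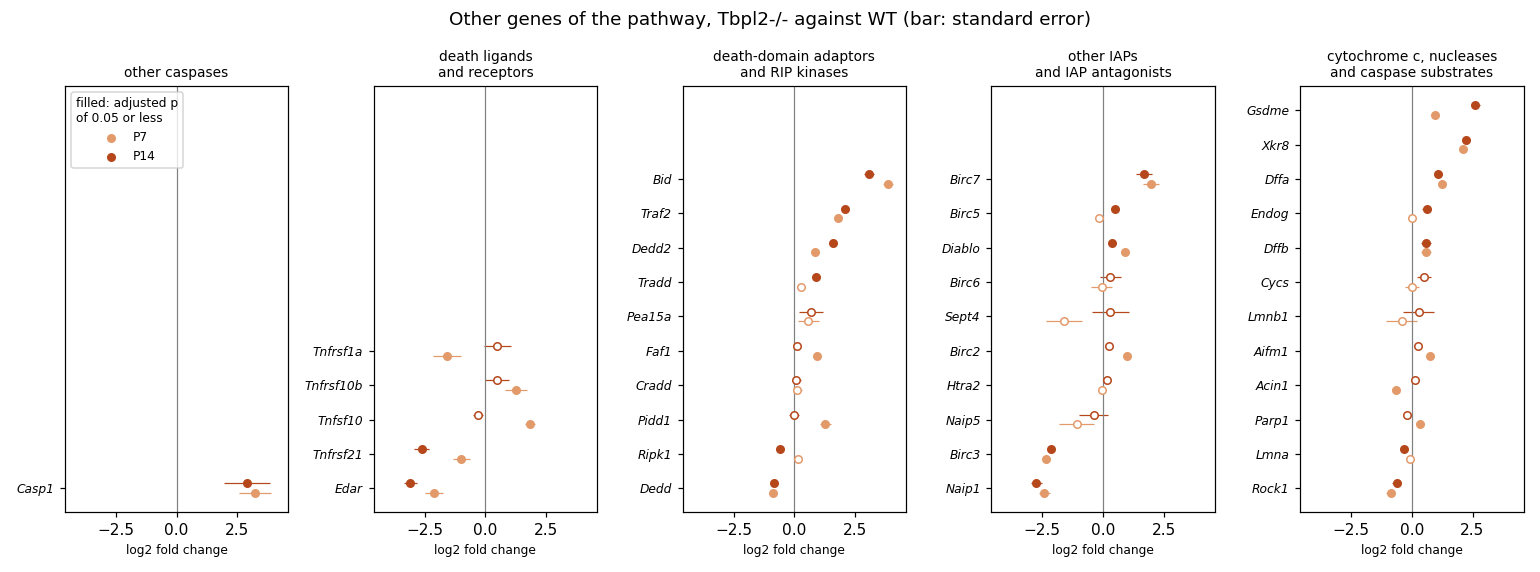
Log2 fold changes of Tbpl2-/- against WT with standard errors (horizontal axis) for the tested genes of the 5 pathway lists, at P7 and P14. Filled points have an adjusted p of 0.05 or less. Bid lies highest at 3.88 and 3.08, and Edar, Naip1 and Birc3 lie below -2 at both ages.

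Of 10 tested IAPs other than Xiap and IAP antagonists, 2 were lower and 3 higher at each age, with medians of 0.27 at P14 and -0.12 at P7, and these counts lie near the shares over all tested genes (27.8% lower and 29.9% higher at P14, 28.9% and 30.5% at P7). Birc3, which encodes cIAP2, had 23231, 20019 and 20307 normalised counts in P7 WT and 4000, 4298 and 4074 in P7 Tbpl2-/- (log2 fold change -2.34, SE 0.12, edgeR adjusted p = 3.25e-10). At P14 it had 30173, 31082 and 27275 in WT and 5923, 6313 and 7531 in Tbpl2-/- (-2.14, adjusted p = 9.30e-10). Naip1, known in mice as a sensor of bacterial proteins, was lower as well (-2.43, adjusted p = 2.26e-07, and -2.75, adjusted p = 4.13e-08). It belongs to a family of related genes, and reads that fit several of them equally were not counted. How many such reads there were was not tested. Birc7, or livin, was higher at both ages (1.99, adjusted p = 1.10e-04, and 1.68, adjusted p = 5.26e-04) at low levels of 16.3 ± 7.21 normalised counts in P7 WT. Birc2, or cIAP1, was higher at P7 (1.00, adjusted p = 2.29e-05) and had 0.25 at P14 (adjusted p = 0.146), where it passed by library size alone (0.67, adjusted p = 4.37e-04). Birc5, or survivin, best known for cell division, was higher at P14 (0.47, adjusted p = 0.00430) and had -0.17 at P7 (adjusted p = 0.256).

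Of 12 genes for cytochrome c, nucleases and caspase substrates, all tested, 2 were lower and 5 higher at P14, and 2 were lower and 6 higher at P7, with medians of 0.39 and 0.16. Gsdme, a gasdermin whose cleavage opens pores in the cell membrane, had 230, 305 and 260 normalised counts in P7 WT and 610, 402 and 507 in P7 Tbpl2-/- (log2 fold change 0.95, edgeR adjusted p = 2.95e-04). At P14 it had 269, 261 and 195 in WT and 1428, 1310 and 1630 in Tbpl2-/- (2.61, adjusted p = 1.62e-08). Xkr8, the caspase-activated scramblase that exposes phosphatidylserine, was higher at both ages (2.10, adjusted p = 1.08e-08, and 2.23, adjusted p = 6.65e-09), as was Dffa, the inhibitor of the caspase-activated DNase (1.221, adjusted p = 8.39e-06, and 1.07, adjusted p = 3.41e-05). Rock1, a kinase that caspases cleave during blebbing, was lower at both (-0.88, adjusted p = 6.47e-04, and -0.63, adjusted p = 0.00756), but by library size alone it did not pass at P14 (-0.22, adjusted p = 0.326). Lmna, encoding the lamin A and C that caspase-6 cleaves, was lower at P14 (-0.34, adjusted p = 0.0115) but not without P14 WT replicate 1 (0.0654), P14 KO replicate 1 (0.0549) or P14 KO replicate 3 (0.0529), and it turned to 0.079 by library size alone. Acin1, a caspase substrate in chromatin condensation, was lower at P7 (-0.67, adjusted p = 4.98e-04), and by library size alone it was higher at P14 (0.56, adjusted p = 0.00412).

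Among 8867 genes with an average log2 CPM above 3, the gene whose log2 CPM followed that of each member most closely over the 12 libraries was C1galt1c1 for Cflar (Pearson r = 0.991), Cwc22 for Fadd (0.981), Ifi47 for Casp8 (0.929), Rlim for Apaf1 (0.964), Gapvd1 for Casp9 (0.979), Gak for Casp2 (0.986), Atp5c1 for Casp6 (0.993) and Drap1 for Xiap (0.982). These values describe 12 points that fall into 4 groups and share their depth. Among the members themselves, Cflar and Fadd had r = 0.937, Casp9 and Casp2 had 0.879, Casp9 and Xiap had -0.889 and Cflar and Casp6 had -0.836.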

How the data were processed

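PolyA RNA of pooled oocytes was amplified and sequenced by the authors as single reads of 50 bases, without molecular identifiers and without strand. By the processing notes of the submitters and the methods of the study, reads were called by bcl2fastq 2.17.1.14, then trimmed and aligned to mm10 with STAR 2.7.0f. Uniquely aligned reads were counted per gene with HTSeq 0.9.1 (union mode, Ensembl 96). The deposited counts are whole numbers of reads per gene, and the deposited normalised values are a signal, made by the authors by dividing counts by size factors of DESeq2 1.22.2 under R 3.5.3. The authors' deposited log2 fold changes, their standard errors and test score, and their p-values were not used, nor were their means and SDs of each group.

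The counts of 12 libraries (31467610 to 48030724 reads) were fitted once with edgeR 4.0.16 under R 4.3.3 (TMM factors, filterByExpr, robust quasi-likelihood F test, two-sided) as 4 group means with 5 contrasts, and p-values were adjusted by Benjamini and Hochberg over 17715 genes. Calls of lower or higher need an adjusted p of at most 0.05. The code of the fit was run on simulated counts with far fewer changed genes than were called here, which checks the code only. Alternatives were other size factors, library size alone, DESeq2 1.42.0, no filter, the 6 libraries of a contrast, a replicate block and each library left out. The labels do not say what a replicate number marks. Same-numbered P7 and P14 Tbpl2-/- libraries deviated together (r = 0.292 to 0.634), though P7 KO replicate 2 was closer to P14 KO replicate 3 (0.51), so the ages in Tbpl2-/- were also fitted with the number as a block. Ratios were compared by exact permutation in Python 3.11.15 with scipy. Named genes are the 8 members, the tested caspase among the others reported, up to 2 called genes per direction, age and list, the 1 gene most alike to each member, and Tbpl2. Some genes of the caspase list are not reported here. The members were picked by symbol, with no threshold on a measured value, but they and the lists were chosen with earlier results of these data known. All 55450 identifiers matched the annotation of the authors' build. The p-values rest on the spread between pools, whose animals are not given, and those with few reads are limited by counting error as well.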

Additional observations from a re-analysis of the deposited data

Results flagged for a closer look

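The effect of the genotype differed between P14 and P7, by the interaction test of edgeR at an adjusted p of at most 0.05, for 11 of the 29 named genes with such a test, beside 14.3% of all 17715 tested genes lower and 13.6% higher in the interaction. Most of the named genes were chosen because they passed between genotypes. Each value is the log2 fold change at P14 minus that at P7. Among the 8 caspases and brakes those that passed were Casp2 at -0.79 (adjusted p = 0.0175), Casp8 at 0.66 (adjusted p = 0.0197) and Xiap at 1.15 (adjusted p = 0.0164). Among the other named genes, Tnfsf10 had -2.12 (adjusted p = 2.98e-04), Tnfrsf21 -1.63 (adjusted p = 0.0171), Bid -0.80 (adjusted p = 0.0424), Birc2 -0.75 (adjusted p = 0.0135) and Ripk1 -0.74 (adjusted p = 0.0275). Gsdme had 1.66 (adjusted p = 6.31e-04), Acin1 0.82 (adjusted p = 0.00686) and Birc5 0.64 (adjusted p = 0.0148). In fits that left out 1 library, Bid missed the limit in 11 of 12 (adjusted p up to 0.109), and also by library size alone (0.0912), Ripk1 in 6 (up to 0.0954), Casp8 in 3, Casp2 in 2 and Birc2 in 1 (0.0504). For Tnfsf10 the P7 Tbpl2-/- libraries stood apart, with 322, 391 and 456 normalised counts against 77.5 to 128 in the libraries of the other 3 groups. For Gsdme the P14 Tbpl2-/- libraries did, at 1310 to 1630.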

How the results depend on the processing

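The changes of Cflar, Fadd, Casp6, Casp9, Casp2, Casp8, Apaf1 and Xiap that passed between genotypes passed in every alternative run, except Fadd at P14 by library size alone (-0.22, adjusted p = 0.166 by edgeR). Scaling by library size alone moved the median of all genes from 0.07 to 0.48 at P14 and from 0.02 to 0.29 at P7. It gave 4 members higher at P14 in place of 2, with Casp2 and Casp9 added. It also gave 1 death ligand or receptor lower at P7 (3 before), 1 gene of the list of death-domain adaptors and RIP kinases lower at P14 (2 before), 5 IAPs and antagonists higher at P14 (3 before), and, of the cytochrome c, nuclease and substrate list at P14, 0 lower (2 before) and 8 higher (5 before). The interaction was the least stable: 1 member was lower in it, and 2 were by RLE factors, 2 without the filter and 3 by DESeq2. Without the filter 4 IAPs and antagonists were lower at P7 (2 before) and 1 gene of the substrate list was lower at P14 (2 before). With only the 6 libraries of the contrast 0 other caspases were higher at P14 (1 before), because Casp1 did not pass the filter on low counts there and was not tested. With the longest transcripts, chosen after seeing the data, the ratio of Cflar to Casp8 was 0.152 in P7 WT and 0.00725 in P7 Tbpl2-/-. Where not named, the cause was not tested.

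Leaving out 1 library at a time gave 0 to 3 members lower and 1 to 2 higher in the interaction. It gave 0 to 1 other caspases higher at P14 (0 without P14 WT replicate 3 or P14 KO replicate 3). Death ligands and receptors ran from 1 to 3 lower at P7 (1 without P7 KO replicate 3) and from 1 to 2 higher (1 without P7 WT replicate 3 or P7 KO replicate 1). The substrate list ran from 1 to 2 lower at P14 (1 without P14 WT replicate 1 or P14 KO replicate 3) and from 3 to 6 higher (3 without P14 WT replicate 3).

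Lmna at P14, which passed at -0.34, turned to 0.079 by library size alone (adjusted p = 0.506 by edgeR), and all other changes of sign were in values that did not pass. Changes of sign by that scaling were Casp8 at P7 (0.23), Casp8 between the ages in WT (-0.14), Apaf1 at P7 (0.15), Xiap at P14 (0.36), Birc5 (0.11) and Lmna (0.19) at P7 and Tnfsf10 at P14 (0.12). Casp8 between the ages in WT was also -0.0054 without the filter and -0.052 with the 6 libraries of the contrast, and Xiap at P14 was 0.00021 without the filter. With 1 library left out, Cflar ran from -0.27 to 0.39 between the ages in Tbpl2-/- and from -0.46 to 0.20 in the interaction. Casp8 ran from -0.14 to 0.026 at P7 and from -0.070 to 0.089 between the ages in WT, Apaf1 from -0.34 to 0.099 at P7 and from -0.080 to 0.095 between the ages in Tbpl2-/-, and Xiap from -0.24 to 0.15 at P14. The log2 ratio of Cflar to Fadd between the ages in Tbpl2-/- ran from -0.48 to 0.25 and that of Apaf1 to Casp9 in WT from -0.021 to 0.28.

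Between WT and Tbpl2-/- of an age, and between the ages in WT, replicate numbers did not pair the samples, since deviations of same-numbered libraries correlated at -0.328 to 0.112 at P7, -0.491 to 0.584 at P14 and -0.274 to -0.0132 in WT. With the replicate block 3 members were lower and 2 higher at P14, and no call of a member changed. In the 6 Tbpl2-/- libraries, whose numbers did go together, the block gave 1 member lower and 1 higher between the ages, Casp6 (-0.70) and Casp8 (0.66) as before, a fit added after seeing the data. The Cflar values of Tbpl2-/- libraries rest on 8 to 25 reads each, and their difference between the ages had a standard error of 0.35 (log2) around 0.04.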
